A study of Saccharomyces cerevisiae with 48 samples.

Results

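The comparison described here is that of S. cerevisiae cells growing with oxygen in 4% ethanol with cells growing with oxygen in plain YPD, the rich glucose medium of yeast laboratories. Its members are 12 of the 48 RNA-seq libraries of the series, taken by their labels. They are 6 YPD and 6 ethanol libraries, 2 from each of 3 wild strains in each medium. The strains are WA (NCY3290), a West African isolate from bili wine, PAP (Y7568), a mosaic strain from a rotten papaya, and IL01, a mosaic strain from soil. Cultures were started at an optical density of 0.01 in YPD, with or without the alcohol, in shaken flasks and were collected in log phase at 0.5, several generations later. Each strain is 1 genetic background, and its replicates were taken on different days. The strains were otherwise untreated, and their ploidy is not given in the sources used here. The question put to these libraries was which genes change in ethanol in the 3 strains alike. A further 12 aerobic libraries of the same strains in 0.8% 1-butanol and 1% isobutanol are used only to place the ethanol response beside that to other alcohols.

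Ethanol is both a product and a food of yeast. While glucose lasts, cells ferment it, take it up through hexose transporters chosen by the glucose level, and keep respiration and the use of other carbon sources low. Ethanol also dissolves in membranes, disturbs the proteins in them and is oxidised through acetaldehyde to acetate. Longer alcohols arise from amino acids in the Ehrlich pathway, in which an amino acid loses its amino group, then carbon dioxide, and is reduced to a fusel alcohol.

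ARO10 and ARO9, the decarboxylase and the transaminase of the Ehrlich pathway for aromatic amino acids, were among the largest increases, with the flocculin FLO11, the phosphate-related transporter GIT1 and the glucose-repressed hexokinase HXK1. HXT1, the low-affinity glucose transporter of cells with much glucose, fell furthest. Of 5619 genes with a mean RPKM (reads scaled to gene length and to mapped reads) of at least 1, 316 rose (5.62%) and 77 fell (1.37%) at an FDR under 1% in limma, 393 in all (6.99%). The median gene stood 0.217 log2 units higher in ethanol. When the libraries were instead set to equal medians, 177 rose (3.15%) and 121 fell (2.15%), and with quantile normalization 225 rose and 160 fell. List medians below are therefore given relative to the median of all genes tested. Counts of list members that rose or fell are to be read against 5.62% and 1.37% of all genes, and those with equal medians against 3.15% and 2.15%.

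The letters before 4 of these genes are shown because matches to known regulatory motifs lie close together there. Each stretch comes from the R64 reference genome, not from the 3 strains, lies within the 500 bases before the start codon, and runs towards it. Capitals mark the motif matches on either strand. For ARO10 (chromosome IV, 1233868 to 1233978, plus strand) and ARO9 (chromosome VIII, 375469 to 375584, plus strand) the capitals mark the direct repeat of CCG (a pair of CCG with 7 bases between them) bound by zinc cluster factors such as Aro80, the activator of both genes. For SPL2 (chromosome VIII, 375120 to 375255, minus strand) they mark CACGTG, the core recognised by Pho4, the activator of phosphate genes. For HXT1 (chromosome VIII, 293010 to 293115, minus strand) they mark CGGANNA, the element recognised by Rgt1, the repressor of hexose transporter genes.
ARO10: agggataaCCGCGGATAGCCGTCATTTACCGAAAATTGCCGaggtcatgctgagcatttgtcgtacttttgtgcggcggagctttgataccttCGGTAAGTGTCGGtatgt
ARO9: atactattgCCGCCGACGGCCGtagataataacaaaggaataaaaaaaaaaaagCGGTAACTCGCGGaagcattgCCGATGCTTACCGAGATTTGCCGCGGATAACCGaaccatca
SPL2: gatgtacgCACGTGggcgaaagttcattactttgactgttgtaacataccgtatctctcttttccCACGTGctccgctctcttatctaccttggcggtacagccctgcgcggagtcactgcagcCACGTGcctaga
HXT1: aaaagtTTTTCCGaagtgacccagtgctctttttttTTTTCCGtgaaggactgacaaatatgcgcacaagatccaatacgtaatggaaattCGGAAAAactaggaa
The ARO10 stretch holds 4 matches, some of which overlap, the ARO9 stretch 5, the SPL2 stretch 3 and the HXT1 stretch 3. ARO9 and SPL2 are divergent neighbours, and the 608 bases between them (chromosome VIII, 375101 to 375708) lie upstream of both. Over all genes, 5.3% of 5989 windows of 500 bases before the start codon hold a CCG repeat, 8.8% of those of genes that rose and 10.5% of those of genes that fell. Of the 15 largest increases 14 had a window, and 3 of those held the repeat (ARO10 and the neighbours ARO9 and SPL2), as did 5 of the 15 largest decreases (33.3%). CACGTG was in 6.2% of all windows, 11.8% of those of genes that rose and 6.6% of those of genes that fell. CGGANNA, a short word, was in 42.1%, 49.0% and 53.9%. These last motifs were added after the genes had been seen. AGGGG, the stress response element read by Msn2 and Msn4, was in 34.1% of all windows, 50.7% of those of genes that rose and 34.2% of those of genes that fell. GAANNTTC, the core of the heat shock element, was in 19.2%, 18% and 22.4%. CCAAT, the box read by the Hap complex, was in 62.4%, 62.1% and 64.5%. TGACTC, the Gcn4 site, was in 12.7%, 14.1% and 17.1%. The Zap1 site, searched under that name, was in 0.2% of all windows and in none of those of called genes. A match is a description of the letters and was not tested as a binding site.

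The libraries were of similar depth. Reads in genes numbered 5881196 to 9264454 in YPD and 6747609 to 9509259 in ethanol, and 3 reads in a gene of 1 kb stand for an RPKM of 0.255 to 0.387. Between 566 and 755 genes were listed at 0 reads. Reads in genes made up 75.8% to 80.2% of mapped reads in YPD and 69.8% to 81.3% in ethanol. The lowest share was that of WA ethanol replicate 2. RPKM is scaled to mapped reads, and the part of this share in the changes was not tested. Replicates correlated at 0.973 to 0.989 across genes, the lowest in WA YPD. The 2 libraries of WA YPD lay far apart on the first principal component (-11.4 and -39.8), as did those of IL01 YPD (-13.7 and 11.3). Leaving out WA YPD replicate 1 raised the count of calls from 393 to 1261, and leaving out the 4 WA libraries raised it to 1271 (1144 rose and 127 fell). Leaving out IL01 ethanol replicate 2 lowered it to 157, the lowest. Genes of low level rose more in general. The median change was 0.37 in genes with a mean RPKM of 1 to 10, 0.20 from 10 to 100, 0.02 from 100 to 1000 and -0.20 above 1000. The 175 genes above 1000 hold 120 of 138 ribosomal proteins and 9 of 17 glycolytic genes, and the part of this trend in their changes was not tested.

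**Figure D1:**
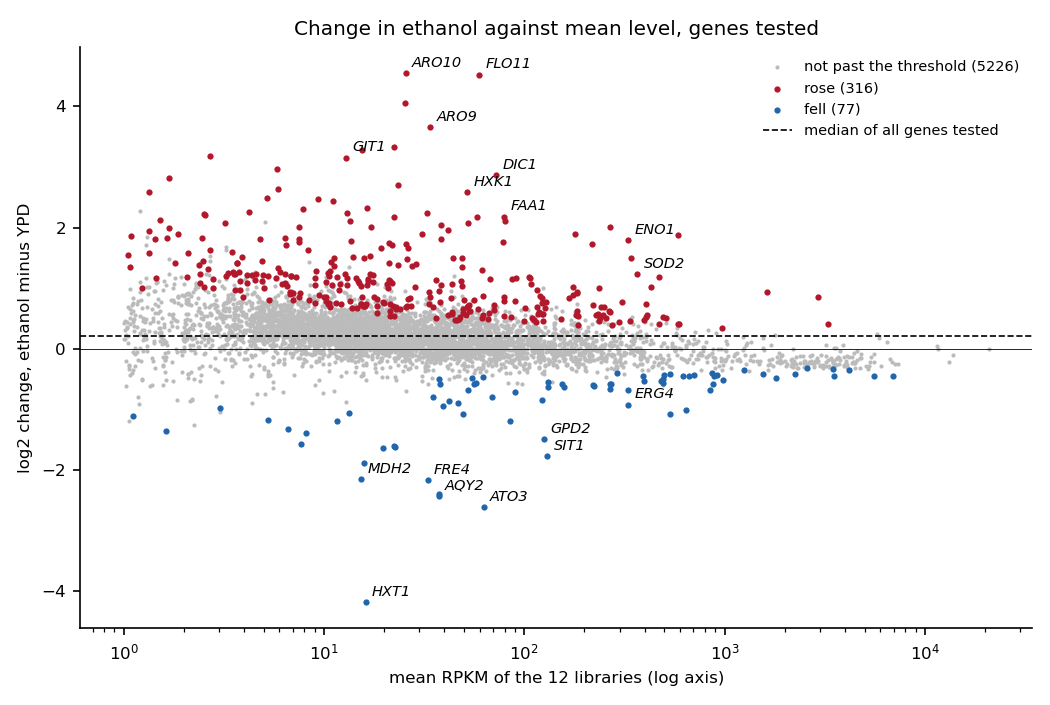
Mean RPKM over the 12 libraries (horizontal, log axis) against the log2 change in ethanol (vertical) for 5619 genes, with those that rose in red (316), those that fell in blue (77) and the median of all genes (0.217) as a dashed line. The grey cloud slopes downwards, and ARO10 at 4.54 and HXT1 at -4.18 lie farthest from it.

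Of the 316 genes that rose, 303 had a higher mean in ethanol in each of the 3 strains and 277 were higher in all 6 pairs of libraries of the same strain and replicate number, against 16.0% of all genes tested. In 102 of them the 6 ethanol libraries lay above all 6 YPD libraries, against 2.87% of all genes. Of the 77 that fell, 75 were lower in each strain and 68 in all 6 pairs, against 3.26%. In 29 of these the groups did not overlap, against 0.730%. The increases were the larger, with 171 over 1 log2 unit and 37 over 2, and a median size of 1.05 against 0.631 for the decreases. Past 1 log2 unit there were 24 decreases, and 6 past 2. With any 1 of the 12 libraries left out, 115 of the 316 and 33 of the 77 passed the threshold every time.

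In the Ehrlich pathway 4 of 13 genes tested rose and 2 fell, with a median of -0.15 relative to all genes. With equal medians 3 rose and 2 fell. ARO10, the phenylpyruvate decarboxylase, had a lowest, median and highest RPKM of 0.270, 0.959 and 1.47 in YPD and 7.90, 14.7 and 138 in ethanol. Every ethanol library lay above every YPD library, and both WA ethanol libraries, at 116 and 138, lay above those of the other strains. The change was 4.54 log2 units (SE 0.20, adjusted p = 9.1e-07), or 6.36 in WA, 2.94 in PAP and 4.34 in IL01. ARO9, the aromatic aminotransferase that acts before it, went from 2.89, 4.08 and 6.09 in YPD to 31.1, 50.3 and 112 in ethanol. Its groups did not overlap either, and WA was again the strain with the highest ethanol values. The change was 3.66 (SE 0.14, adjusted p = 7.7e-07), or 4.97 in WA, 2.45 in PAP and 3.56 in IL01. The differences between strains did not pass the threshold for ARO10 (adjusted p = 0.052) or for ARO9 (adjusted p = 0.046). PDC5, a minor pyruvate decarboxylase that can also act on other keto acids, rose by 1.73 (SE 0.20, adjusted p = 0.00045), from 8.63 to 14.3 in YPD to 18.7 to 57.7 in ethanol. SFA1, an alcohol dehydrogenase that can make fusel alcohols, rose by 0.55 (adjusted p = 0.0037). That call was lost with equal medians and in 8 of the 12 fits with a library left out. The decreases were PDR12, the exporter of weak organic acids, at -1.08, and ATF2, an alcohol acetyltransferase, at -0.47, the latter named after its value was seen. In PDR12 the groups overlapped (21.5, 31.7 and 158 in YPD, 11.3, 21.5 and 63.2 in ethanol), but every pair was lower in ethanol.

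**Figure D2:**
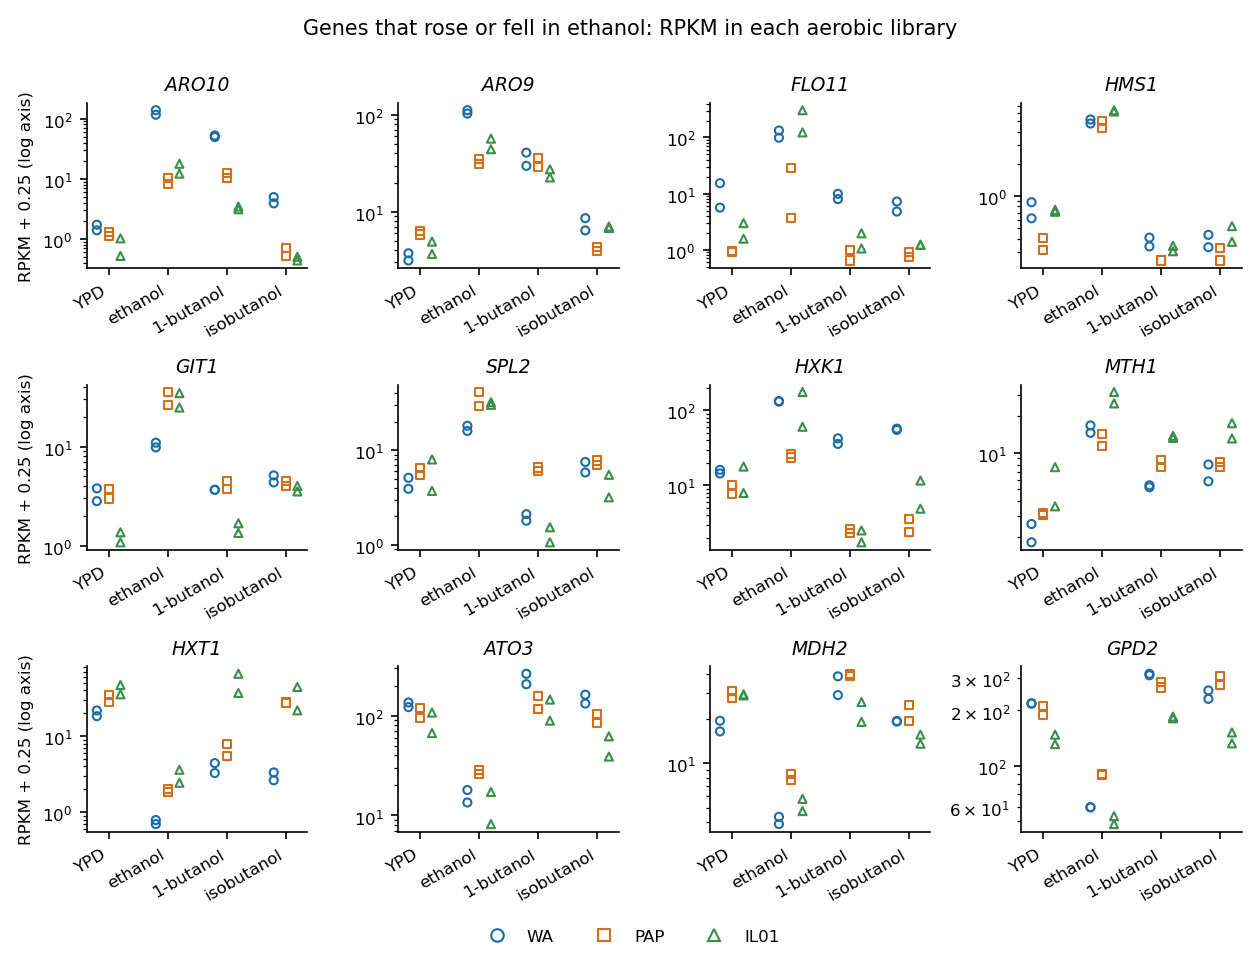
RPKM plus 0.25 (log axis) of 12 genes in each of the 24 aerobic libraries, by medium, with WA as circles, PAP as squares and IL01 as triangles and 2 points a strain. The ethanol points of ARO10, ARO9, GIT1, SPL2, HMS1, HXK1 and MTH1 lie above all YPD points, and those of HXT1, ATO3, MDH2 and GPD2 below them, while the lowest FLO11 ethanol value (3.45) is within the YPD range (0.672 to 15.1).

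The summed RPKM of the 23 genes of the list was 1136 to 1387 in YPD and 1063 to 1410 in ethanol, so the groups overlapped. Of 13 members tested, 4 rose (HXT4, HXT7, MTH1 and SNF3) and HXT1 fell, with a median of 0.21 relative to all genes. HXT15 and HXT16 were listed at 0 in every library. HXT1 (chromosome VIII, upstream letters above) was at 18, 31.3 and 46.6 in YPD and at 0.452, 1.68 and 3.37 in ethanol. No ethanol library reached the lowest YPD library. The change was -4.18 (SE 0.17, adjusted p = 7.7e-07), at -4.74 in WA, -4.02 in PAP and -3.77 in IL01. HXT4, a transporter of higher affinity, went from 10.5, 18.1 and 22.6 to 21.1, 118 and 163. The lowest ethanol values, 21.1 and 32.0, were those of PAP, and the first of them is within the YPD range. The change was 2.17 (SE 0.17, adjusted p = 3.4e-05), or 3.44 in WA, 0.55 in PAP and 2.51 in IL01. HXT7, a high-affinity transporter, rose by 1.67 (SE 0.19, adjusted p = 0.00041), with increases of 3.56 in WA and 1.44 in IL01. In PAP it was at or near the level of a few reads in both media (0.0995 and 0.179 in YPD, 0.0994 and 0.177 in ethanol). HXT6, which is nearly identical to HXT7 and may share its reads, did not pass the threshold (0.76, adjusted p = 0.039).

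SNF3, the sensor of low glucose, rose by 1.18 (SE 0.14, adjusted p = 0.00053), from 3.21 to 5.14 in YPD to 7.54 to 12.3 in ethanol, with no overlap. RGT2, the sensor of high glucose, was at 8.97 to 13.1 in YPD and 5.03 to 9.70 in ethanol, and its change of -0.52 missed the threshold (adjusted p = 0.025). MTH1, which with Rgt1 represses glucose-induced transporter genes, rose from 1.57, 2.88 and 7.37 to 11.2, 15.5 and 31.5. Its groups did not overlap, and the change of 2.44 (SE 0.21, adjusted p = 5.8e-05) stood at 2.85 in WA, 2.03 in PAP and 2.44 in IL01. HXT2 and HXT3 carried 85.5% to 90.9% of the summed RPKM of the list in YPD and 69.8% to 88.7% in ethanol. HXT2 was at 452 to 765 in YPD and 431 to 654 in ethanol (-0.16, adjusted p = 0.33) and HXT3 at 362 to 632 and 325 to 484 (-0.22, adjusted p = 0.16). SNF3, RGT2, HXT2, HXT3 and HXT6 were named after their values were seen.

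**Figure D3:**
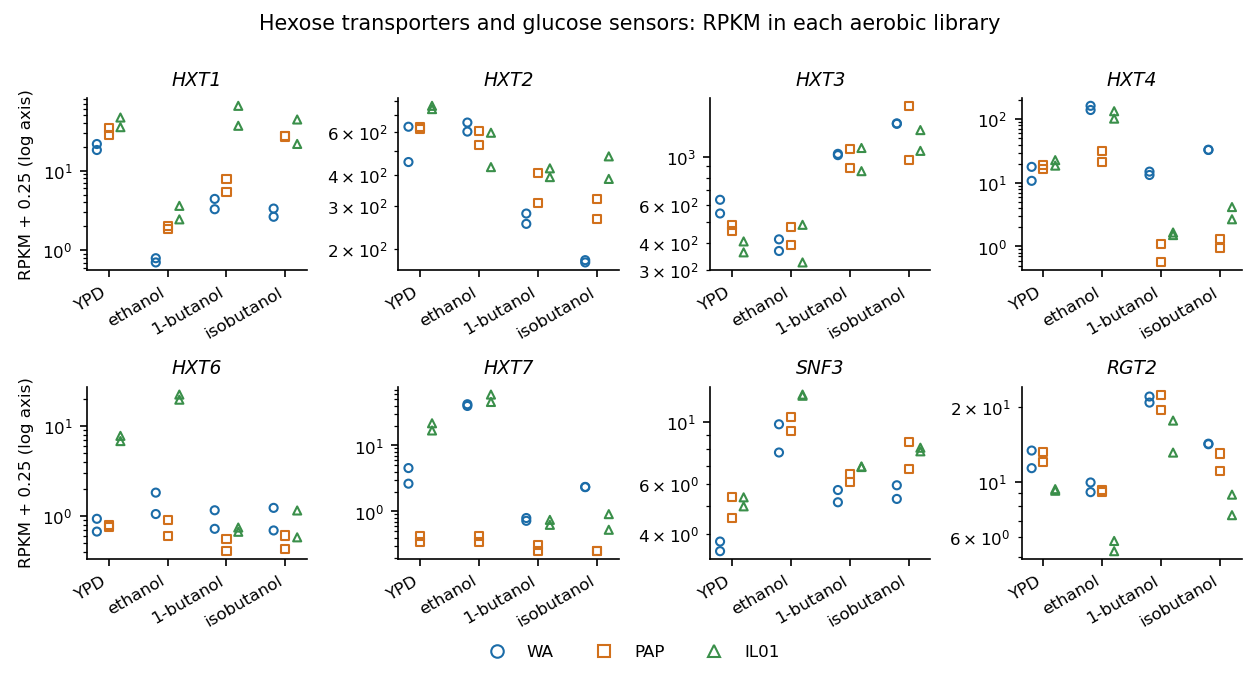
RPKM plus 0.25 (log axis) of 6 hexose transporters and the sensors SNF3 and RGT2 in each of the 24 aerobic libraries, by medium and strain, with 2 points a strain. HXT1 lies at 0.452 to 3.37 in ethanol and 18 to 46.6 in YPD, HXT4 at 21.1 to 163 and 10.5 to 22.6, and HXT2 and HXT3 overlap between these media.

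Of 17 genes of glycolysis, 5 rose and 3 fell, with a median of -0.16 relative to all genes. With equal medians 3 rose (HXK1, ENO1 and PYK2) and 1 fell (HXK2). With quantile normalization 6 rose and 2 fell, and the median was 0.26 relative to all genes. The genes that rose were forms that glucose-grown cells use less, HXK1, TDH1, TDH2, ENO1 and PYK2. Those that fell were the main hexokinase HXK2, the phosphoglucose isomerase PGI1 and the phosphofructokinase subunit PFK2. HXK1 went from 7.37, 12 and 17.6 to 23.3, 95.6 and 176 without overlap, a change of 2.58 (SE 0.24, adjusted p = 0.00011). HXK2 stayed the more abundant at 811 to 1240 in YPD and 528 to 926 in ethanol, a change of -0.45 (adjusted p = 0.0043). ENO1, an enolase, rose by 1.80 (SE 0.09, adjusted p = 2.9e-06), from 79.2, 128 and 268 to 364, 451 and 750, again without overlap. TDH1 and TDH2, both glyceraldehyde-3-phosphate dehydrogenases, rose by 1.50 and 0.86, and PYK2, a pyruvate kinase, by 1.28. PGI1 changed by -0.35 and PFK2 by -0.43. The calls of HXK2, PGI1 and PFK2 were each lost in 6 to 8 of the 12 fits with a library left out. TDH2, HXK2, PGI1 and PFK2 were named after their values were seen, and reads of the TDH and ENO paralogs may be shared.

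Adhesion genes were among the largest increases. Of 22 tested genes of flocculation and filamentous growth, 7 rose and none fell, and these 7 also rose with equal medians, where SOK2, a regulator of filamentous growth, fell. The median was 0.15 relative to all genes. FLO11, the flocculin needed for filaments and biofilms, was at 0.672, 2.03 and 15.1 in YPD and 3.45, 111 and 305 in ethanol. The groups overlapped because WA was high already in YPD and PAP ethanol replicate 1 low. Within each strain both ethanol libraries lay above both YPD libraries, and the change was 4.52 (SE 0.48, adjusted p = 0.00026), or 3.62 in WA, 3.46 in PAP and 6.48 in IL01. The other flocculins rose by 2.63 (FLO5), 2.23 (FLO9) and 1.58 (FLO1). These genes share repeats, and reads may be split between them. YAL065C, which the annotation describes as similar to FLO1, rose by 3.34. HMS1, a helix-loop-helix protein tied to filamentous growth, went from 0.0653, 0.416 and 0.627 to 4.03, 4.85 and 6.09. Its ethanol levels were close to each other in all strains, and the change was 3.18 (SE 0.19, adjusted p = 6.3e-06). PHD1, an activator of filamentous growth, rose by 2.24 (SE 0.17, adjusted p = 2.7e-05), by 0.51 in WA, 2.37 in PAP and 3.85 in IL01. NRG1, a repressor of FLO11 and of glucose-repressed genes, rose by 1.21. FLO1, FLO9, NRG1 and SOK2 were named after their values were seen.

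Cell wall mannoproteins moved in both directions, with 5 of 23 higher, 3 lower and a median of -0.03 relative to all genes. TIP1, a mannoprotein of the mother cell wall, rose by 2.17 (SE 0.12, adjusted p = 4.7e-06), from 2.40, 7.42 and 20.6 to 18, 40.5 and 44.4. CWP2, an abundant wall protein, rose by 0.94 and TIR4 by 1.13, while its partner CWP1 fell by 0.85, TIR3 by 1.20 and CCW14 by 0.50. In CWP1 the strains differed more than the media (50.5 to 279 in YPD, 27.1 to 123 in ethanol), yet every pair was lower in ethanol. CWP1, CWP2, TIR4 and CCW14 were named after their values were seen.

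Of 19 phosphate genes tested 9 rose and PHO89 fell, with a median of 0.31 relative to all genes. With equal medians 4 rose and 2 fell. GIT1, the permease of glycerophosphoinositol, went from 0.828, 2.65 and 3.53 to 9.55, 25.3 and 35.3. The groups did not overlap, and the change of 3.15 (SE 0.18, adjusted p = 4.4e-06) reached 1.67 (WA), 3.19 (PAP) and 4.60 (IL01). SPL2, which holds back the low-affinity phosphate transporters and lies beside ARO9 (letters above), went from 3.46, 5.05 and 7.73 to 15.7, 29.6 and 40.9. Its change of 2.33 (SE 0.17, adjusted p = 2.7e-05) was 1.93, 2.54 and 2.52 in WA, PAP and IL01. PHO84, the high-affinity transporter, rose by 0.74, PHO5, the secreted acid phosphatase, by 1.29 and PHM8, a phosphatase of nucleotides and lipids, by 1.58. VTC1, VTC3 and VTC4, which make polyphosphate in the vacuole membrane, rose by 0.53, 0.98 and 0.60, and PHO86, which brings Pho84 out of the endoplasmic reticulum, by 0.47. The calls of VTC1, VTC4 and PHO86 were lost in 6, 8 and 8 of the 12 fits with a library left out. PHO89, the sodium-coupled phosphate transporter, went the other way by -1.64 (SE 0.22, adjusted p = 0.001), from 1.60, 2.46 and 116 to 0.495, 0.864 and 22.2. WA was far above the others in both media, so the groups overlapped, and all 6 pairs were lower in ethanol. PHO84, PHO5, the VTC genes and PHO86 were named after their values were seen.

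Of 26 genes of the respiratory chain tested, 8 rose and none fell, against 5.62% and 1.37% of all genes. In all 6 pairs 18 were higher, against 16.0% of all genes, and the median was 0.22 relative to all genes. With equal medians 1 rose and 1 fell. QCR2 and CYT1, of the cytochrome bc1 complex, rose by 0.72 (SE 0.10, adjusted p = 0.0015) and 0.69 (SE 0.08, adjusted p = 0.00061). CYT1 was at 140, 181 and 250 in YPD and 211, 332 and 369 in ethanol, with some overlap. NDI1, the internal NADH dehydrogenase, rose by 0.66 and SDH2, of succinate dehydrogenase, by 0.60, and NDI1 alone of the 4 did not overlap (34.1 to 44.1 against 48.2 to 77.0). Of 17 genes of the ATP synthase and its regulators 6 rose and none fell, with a median of 0.19, and with equal medians 1 rose (STF1) and 1 fell. The largest were STF1 and INH1, both inhibitors of ATP hydrolysis by this enzyme, at 1.38 and 0.69. Mitochondrially encoded COX1 did not pass the threshold (0.43, adjusted p = 0.05), and neither did any of the 8 mitochondrially encoded genes in limma, with or without voom weights. With quantile normalization 1 of the 8 rose. At an unadjusted p under 0.05 there were 2 of these 8 higher and 1 lower, against 27.8% and 6.1% of all genes tested. The annotated span of COX1 includes genes within its introns.

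In the TCA cycle 5 of 19 genes rose and none fell, against 5.62% and 1.37% of all genes. The median was 0.20, and with equal medians 3 rose and 1 fell. CIT1, the citrate synthase, went from 36.4, 56.5 and 74.5 to 86.4, 122 and 165. Its groups did not overlap, and it rose by 1.17 (SE 0.13, adjusted p = 0.00035). IDH1 and IDH2, which form the isocitrate dehydrogenase, rose by 0.77 and 0.84, also without overlap, and PYC1, pyruvate carboxylase, by 1.16. CIT2, the peroxisomal citrate synthase, rose by 1.50, most in PAP (2.53). MDH2, the cytosolic malate dehydrogenase of gluconeogenesis, went against these. It was at 16.2, 28.0 and 30.5 in YPD and 3.64, 5.01 and 8.18 in ethanol, a change of -2.15 (SE 0.12, adjusted p = 4.6e-06) that was alike in the strains (-2.12, -1.85 and -2.47). MDH2 is 1 of 5 oxidoreductases listed here because the study named them for the butanols, and ADH5, ALD5, GDH1 and DLD1 did not pass the threshold for ethanol against YPD. DIC1, the dicarboxylate carrier of the mitochondrial membrane, rose by 2.86 (SE 0.12, adjusted p = 7.7e-07), from 9.28, 19.6 and 21.9 to 101, 122 and 161. CRC1, the carnitine carrier that brings acetyl units into mitochondria, rose by 2.82 from 0 to 0.490 in YPD to 1.30 to 4.31 in ethanol. Of the 12 genes of ethanol and acetate use, CRC1 and the activator ADR1 rose (ADR1 by 0.86, lost in 11 of 12 fits with a library left out), with a median of 0.07. Of 8 alcohol dehydrogenases, ADH3 (0.58) and SFA1 were called, and with equal medians neither was. The call of ADH3 was also lost in 4 of the 12 fits with a library left out.

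Of 41 genes of the general stress response 10 rose and none fell, against 5.62% and 1.37% of all genes. The median was 0.44 relative to all genes, and 5 rose with equal medians. The strains were uneven, with medians of 1.05 in WA, 0.11 in PAP and 0.38 in IL01 relative to the median of all genes in each. GPP2, a glycerol-phosphate phosphatase of salt stress, rose by 1.96 (SE 0.14, adjusted p = 1.7e-05), from 6.68, 20.1 and 28.7 to 38.6, 67.9 and 85.4. GAC1, a regulatory subunit for glycogen synthesis, rose by 1.99 and YGP1, a secreted glycoprotein of nutrient limitation, by 1.52. HXK1, described above, is on this list too. Of 20 trehalose and glycogen genes 5 rose, among them the glycogen synthase GSY2 (1.20), the phosphorylase GPH1 (1.24) and the trehalase NTH2 (1.20). With equal medians 2 rose (NTH2 and GAC1) and 1 fell, and the calls of GSY2 and GPH1 were lost in 7 and 5 of the 12 fits with a library left out. Of 29 heat shock chaperones 2 rose and SSB1 fell (-0.42), against 5.62% and 1.37% of all genes. HSP31, a glyoxalase related to DJ-1, led with 2.04 (SE 0.11, adjusted p = 4.4e-06), and HSP60 rose by 0.51, but by 0.13 in WA. Equal medians ended the calls of HSP60 and SSB1, as did 8 and 5 of the 12 fits with a library left out. In PAP and IL01 alone 14 chaperones rose and 1 fell, and 22 of 33 proteasome genes rose, against 1 in the 3 strains. In that fit 20.4% of all genes rose and 2.26% fell. Of 10 genes in the list of Hsp30-like and other plasma membrane proteins 2 rose and 3 fell, with equal medians 2 and 0. YRO2 and MRH1, of the Hsp30 family, rose by 3.28 and 1.73 (SE 0.20 and 0.07), while PMP3, a small membrane protein, fell by 0.51 and PMA1, the proton pump, by 0.35. PMA1 overlapped between media in WA (4593 and 5550 in YPD, 5220 and 5125 in ethanol). The calls of PMP3 and PMA1 were lost in 6 and 10 of the 12 fits with a library left out, and in 3 and 7 of the 13 other settings. YRO2 was far higher in WA in ethanol than in the other strains, its groups overlapped, and the highest value was 93.8. MRH1 went from 39.4, 128 and 159 to 187, 335 and 485 without overlap.

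Among 27 genes of peroxide and superoxide defence 7 rose and 2 fell, against 5.62% and 1.37% of all genes. The median was 0.06 relative to all genes. With equal medians 3 rose and 2 fell. SOD2, the mitochondrial superoxide dismutase, went from 190, 215 and 274 to 490, 498 and 578. The ethanol libraries lay close together, and the change was 1.24 (SE 0.09, adjusted p = 3.1e-05). PRX1, the mitochondrial peroxiredoxin, rose by 1.35 (SE 0.13, adjusted p = 0.00014). YHB1, the flavohemoglobin that removes nitric oxide, rose by 1.50, but by 2.84 in WA, 0.20 in PAP and 1.46 in IL01. Of 6 aryl-alcohol dehydrogenases, enzymes whose substrates in the cell are little known, AAD4, AAD6 and AAD10 rose by 1.18, 1.49 and 1.10. Their sequences are close, and reads may be shared. The strains were uneven. In PAP, AAD6 was at 5.47 and 8.15 in YPD and 7.29 and 9.59 in ethanol, and AAD10 at 4.23 and 5.53 and at 5.37 and 8.15. In WA, AAD4 was at 2.12 and 2.68 in YPD and 2.87 and 2.92 in ethanol. Of the 6 genes 1 was higher in all 6 pairs, against 16.0% of all genes. The call of AAD10 was lost in 4 of the 12 fits with a library left out. Among fatty acid genes FAA1, which activates long-chain fatty acids, rose by 2.18 (SE 0.16, adjusted p = 2.3e-05) from 21.5, 26.8 and 30.1 to 65.1, 134 and 195. FAA4 (0.60) and the acetyl-CoA carboxylase ACC1 (0.53) were called too, 3 of 17 in the list. With equal medians FAA1 alone of the 17 rose. The call of ACC1 was also lost in PAP and IL01 only and in 7 of the 12 fits with a library left out, and that of FAA4 in 3.

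Genes for getting nitrogen and sulfur were divided. PUT1 and PUT2, which oxidise proline, rose by 1.76 and 1.16, and PUT2 did not overlap between media (27.4 to 55.3 against 74.6 to 106). MEP1, an ammonium permease, fell by 1.19, and ATO3, an ammonium exporter, by 2.61 (SE 0.18, adjusted p = 1.5e-05). ATO3 was at 66.8, 113 and 136 in YPD and 7.95, 17.4 and 28.6 in ethanol. MET2, which acetylates homoserine on the way to methionine, rose by 2.0 (SE 0.21, adjusted p = 0.00027) and MET13, which makes methyltetrahydrofolate, fell by 1.06. In the list of nitrogen use 5 of 25 rose and 1 fell, against 5.62% and 1.37% of all genes. In that of sulfate and methionine 5 of 24 rose and 1 fell. With equal medians these counts were 3 and 1, and 2 and 1. Of the amino acid synthesis lists, LEU2 (0.67) and LEU4 (0.55) rose, though not with equal medians, and LYS20 (-0.63) and ARG1 (-0.59) fell. LYS20 and ARG1 were also called with equal medians, but lost their calls in 8 and 6 of the 12 fits with a library left out. With equal medians 4 of 10 lysine genes and 2 of 10 arginine genes fell. Of 12 genes of aromatic amino acid synthesis 0 passed in limma, with or without voom weights, and the median was -0.24 relative to all genes. With equal medians 1 fell, and with quantile normalization 2 fell. At an unadjusted p under 0.05 there were 1 of these 12 higher and 2 lower, against 27.8% and 6.1% of all genes tested.

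Of 25 ergosterol genes 5 fell and none rose, with a median of -0.37 relative to all genes, and 5 fell with equal medians, of which 3 were among these 5. ERG4, the last enzyme of the pathway, went from 369, 431 and 519 to 172, 232 and 299. The groups did not overlap, and the change was -0.92 (SE 0.08, adjusted p = 8.5e-05), at -0.73 in WA, -1.06 in PAP and -0.98 in IL01. HMG1, the HMG-CoA reductase, fell by 0.62 without overlap, ERG27 by 0.54, ERG10 by 0.46 and ERG3, named after its value was seen, by 0.45. Of 138 ribosomal proteins 5 fell (among them RPS14B at -0.68) and none rose, with a median of -0.43. With equal medians 3 fell, of which 1 was among these 5. With quantile normalization 4 fell and the median was -0.03, so its size depends on the scaling. The calls of RPL1A, RPL4B and RPS28A were lost in 10, 8 and 8 of the 12 fits with a library left out. That list holds many of the most abundant RNAs, in which the median change of all genes was -0.20, and reads may be shared between its paralogs. Of 67 mitochondrial ribosomal proteins 2 rose, against 5.62% of all genes, with a median of 0.25. In PAP and IL01 alone 59 rose, in a fit in which 20.4% of all genes rose.

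Among transporters and reductases, AQY2, a water channel, fell by 2.42 (SE 0.14, adjusted p = 5.4e-06), from 30.6, 49.7 and 123 to 5.51, 11.6 and 18.4. YLL053C, which overlaps AQY2 by 50 bases on the same strand, fell by 2.40, so these are not separate observations. FRE4, a reductase of iron bound to siderophores, fell by 2.17 (SE 0.14, adjusted p = 1.3e-05), from 37.4, 53.4 and 73.8 to 5.93, 10.4 and 21.5. It was the only 1 of 26 genes of the iron regulon that fell, while 5 rose (1.37% and 5.62% of all genes). The list median was -0.15 relative to all genes, and with equal medians 3 rose and 1 fell. ISU1 and ISU2 were among those that rose, without overlap. ISU1 was at 112 to 149 in YPD and 162 to 373 in ethanol, and ISU2 at 17.8 to 38.2 and 43.2 to 75.9. SIT1, a siderophore transporter, fell by 1.77 (SE 0.14, adjusted p = 4e-05), by 2.92 in WA, 1.22 in PAP and 1.16 in IL01. FIT3, a mannoprotein that holds siderophores in the wall, was called higher (1.01, adjusted p = 0.0032), but only WA and IL01 had it higher, and PAP did not. GPD2, a glycerol-3-phosphate dehydrogenase that uses up NADH, fell by 1.50 (SE 0.08, adjusted p = 2.9e-06), from 131, 200 and 219 to 47.9, 59.2 and 90.1. The other largest decreases were PNS1 (-1.89), TPO4, a polyamine exporter (-1.62), YDR222W (-1.60), PRM10 (-1.58) and YJL107C (-1.38), of which the last pair overlap by 4 bases on the same strand. The remaining large increases were YIL014C-A (4.05), YFR052C-A (2.97), NCA3 (2.70) and RPI1 (2.47), a regulator whose overexpression affects cell wall genes. YFR052C-A has no position in the annotation used. Whether it overlaps or shares reads with a neighbour such as HXK1 (YFR053C) was therefore not checked, and it may not be a separate observation.

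No gene passed the threshold of FDR under 1% for a difference in the ethanol response between strains in limma (0%), and 745 (13.3%) had an unadjusted p under 0.05. With voom weights 3 passed, in the fit of all 24 aerobic libraries 32, and without WA YPD replicate 2, 395. The strain changes given above are therefore descriptions. The median gene changed by -0.05 in WA, 0.165 in PAP and 0.526 in IL01. Relative to these, the respiratory chain had medians of 0.58, 0.32 and -0.17, the TCA cycle 0.69, 0.19 and -0.17 and trehalose and glycogen 0.87, 0.04 and -0.01. Phosphate genes (0.31, 0.30 and 0.39), ergosterol synthesis (-0.32, -0.20 and -0.63) and ribosomal proteins (-0.39, -0.26 and -0.61) stood on 1 side of the median in all strains. With quantile normalization the ribosomal median over the 3 strains was -0.03 relative to all genes.

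**Figure D4:**
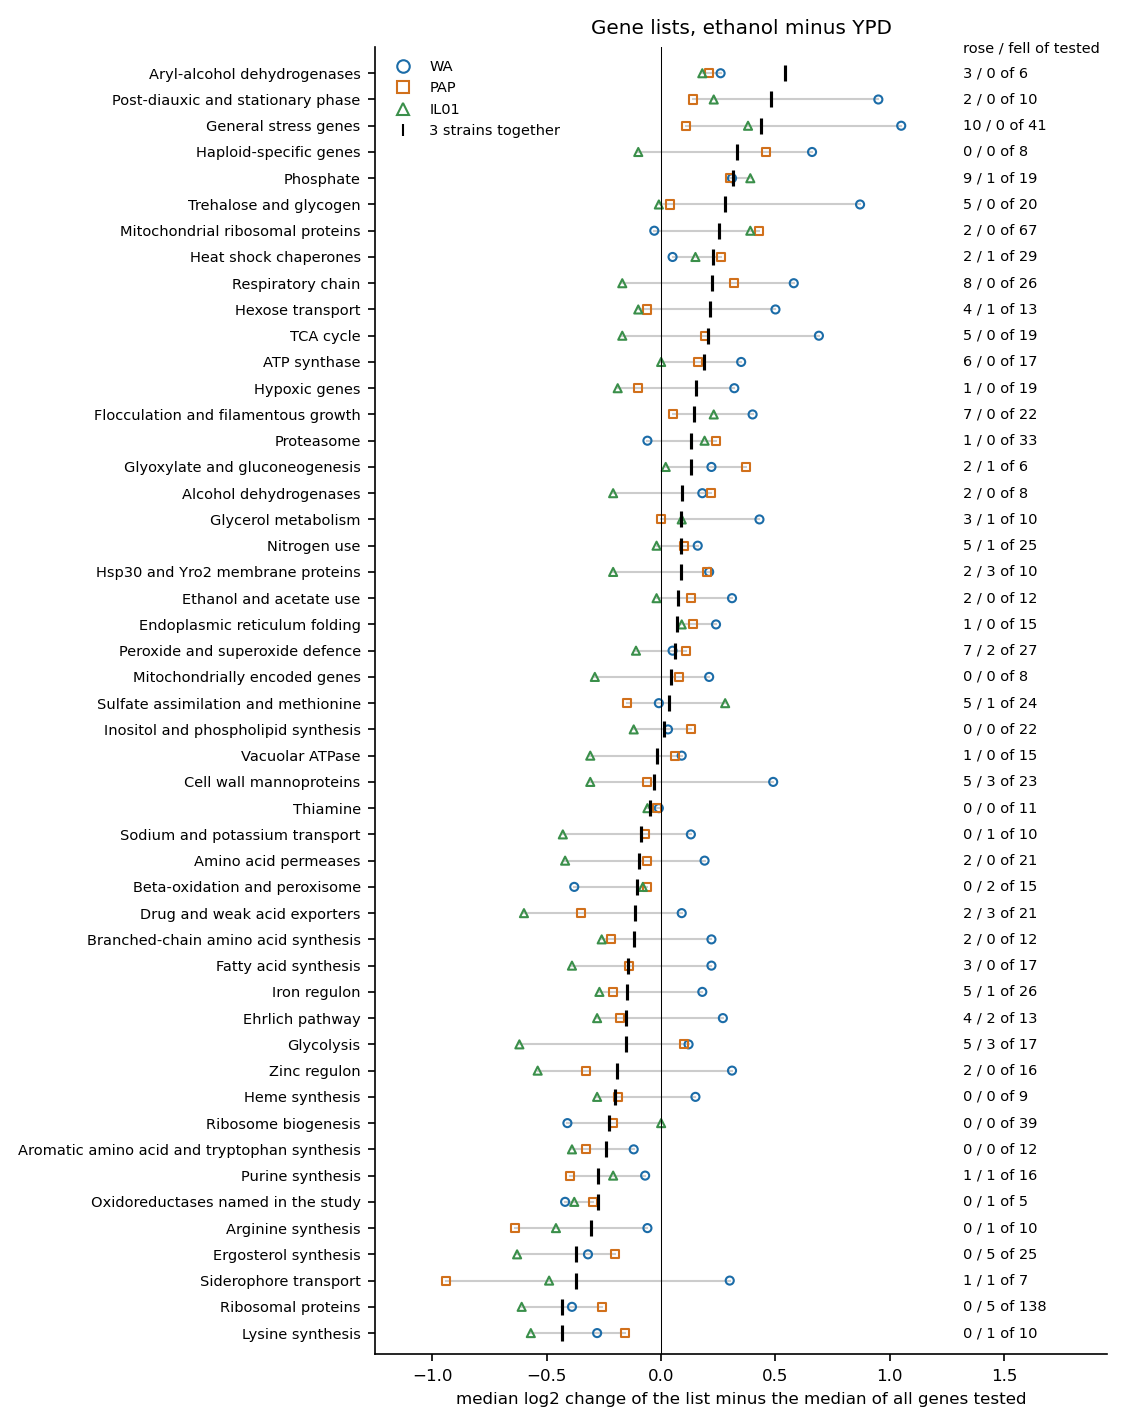
Median log2 change of each gene list in ethanol minus the median of all genes tested, in WA (circles), PAP (squares), IL01 (triangles) and the 3 strains together (bars, which come from the mean change of each gene and need not lie between the strains), with the counts of genes that rose and fell at the right. General stress genes reach 1.05 in WA against 0.11 in PAP, while phosphate genes lie at 0.30 to 0.39 in all strains.

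The butanol libraries share the YPD controls and had other doses, so their values are set beside those of ethanol as measured. ARO10 and ARO9 had medians of 14.7 and 50.3 in 4% ethanol, 11.2 and 29.2 in 0.8% 1-butanol and 0.363 and 6.36 in 1% isobutanol. HXT4, at a median of 118 in ethanol, was at 1.33 in 1-butanol and 3.17 in isobutanol. FLO11 (111) was at 1.26 and 0.976, and HMS1 (4.85) at 0.0717 and 0.103. DIC1, at a median of 122, was at 98.5 and 123 and so was as high in isobutanol. PDR12 had a median of 21.5 in ethanol, 1156 in 1-butanol and 21.6 in isobutanol. In a test of the ethanol libraries against the mean of both butanols at these doses, 355 of 5615 genes were higher in ethanol (6.32%) and 419 lower (7.46%). Of 26 respiratory chain genes 25 were higher and none lower, with medians relative to all genes of 0.22 in ethanol, -0.50 in 1-butanol and -0.57 in isobutanol. Of 17 ATP synthase genes 14 were higher. All 7 siderophore genes were lower, and 15 of 26 genes of the iron regulon. Of 25 ergosterol genes 13 were lower, with medians of -0.37, -0.08 and -0.01. General stress genes had medians of 0.44, 0.03 and 0.13, and ribosomal proteins of -0.43, -0.40 and -0.35.

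**Figure D5:**
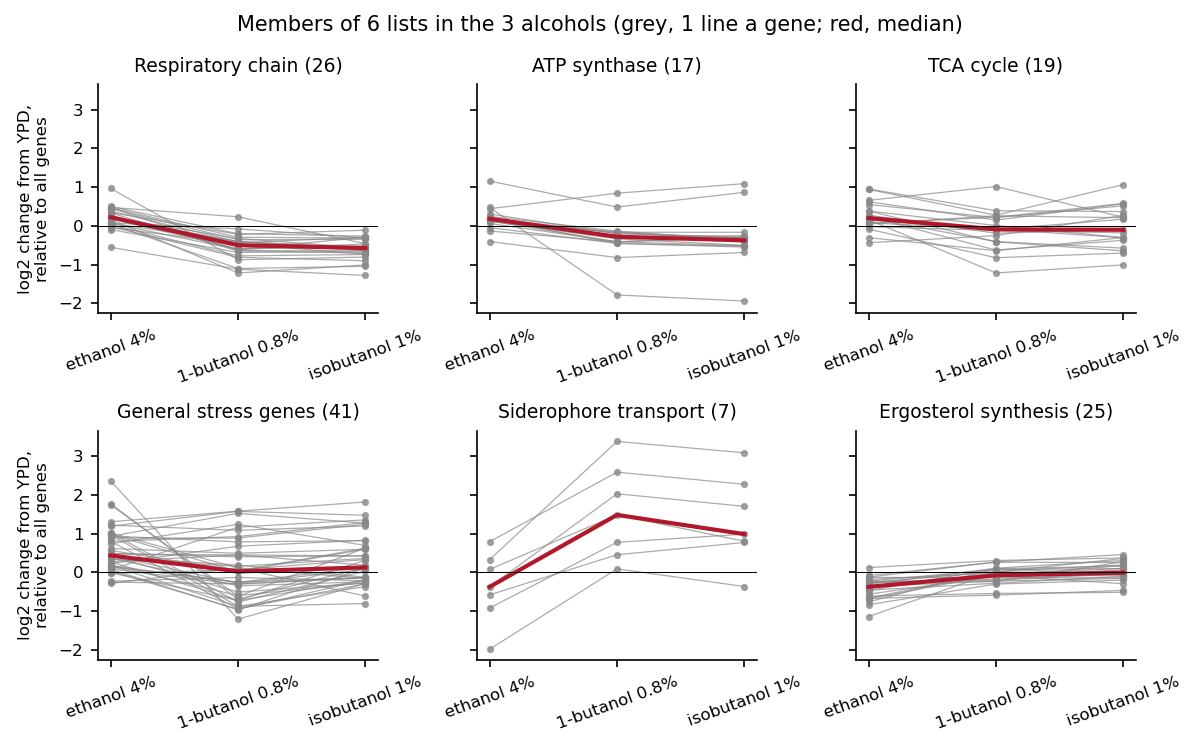
Log2 change from YPD relative to all genes, 1 grey line a gene, in 4% ethanol, 0.8% 1-butanol and 1% isobutanol for the members of 6 lists, with the list median in red. The respiratory chain median goes from 0.22 in ethanol to -0.50 and -0.57, while ergosterol synthesis goes from -0.37 to -0.08 and -0.01.

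Markers of other states of the cultures were measured beside these results. The 18 haploid-specific genes, none of them at 0 in every library, summed to 26.2 to 32.3 RPKM in YPD and 38.9 to 49.6 in ethanol, without overlap. Of the 8 that could be tested 0 passed in limma and 1 with voom weights, with a median of 0.33 relative to all genes. At an unadjusted p under 0.05 there were 5 of these 8 higher, against 27.8% of all genes tested. SAG1 and AGA1, mating agglutinins, changed by 0.47 (adjusted p = 0.08) and 0.44 (adjusted p = 0.11). Genes of cells past the use of glucose summed to 228 to 1670 in YPD and 331 to 2135 in ethanol. Of 10 tested 2 rose, against 5.62% of all genes, and 1 rose with equal medians. The median was 0.48 relative to all genes, and the strains were uneven (0.95 in WA, 0.14 in PAP and 0.23 in IL01). The 20 hypoxic genes summed to 1585 to 3384 in YPD and 1432 to 3980 in ethanol, and 1 of 19 tested rose, against 5.62% of all genes. The part of growth phase and of glucose left in the medium in the changes of HXT, respiratory and stress genes was not tested.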

How the data were processed

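RNA was extracted with hot acid phenol and sequenced from stranded libraries. The authors used Trimmomatic for trimming and bwa mem for alignment against R64, the S288c reference, counted reads per gene with HTSeq, whose strand setting is not given in the sources used here, and deposited log2 RPKM values, 1 column a library, with genes without reads at exactly 0. Such zeros were set to an RPKM of 0. RPKM times gene length gave whole reads, within 0.01 reads, for 6012 of 6713 identifiers (89.6%), from 7761311 to 11748089 mapped reads a library. Of the identifiers 6022 matched the RefSeq annotation, and 4 lines of the table are not analysed here.

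Values were fitted as log2(RPKM + 0.25), a scale that understates changes of low genes, in limma (version 3.58.1 under R version 4.3.3). Variances were moderated with a trend on level, and genes whose mean RPKM was under 1 were left out. The model held a mean for each strain and medium and the replicate number as a block, since the study treated replicates as pairs. The contrast was the mean of the 3 strain changes. Differences between strains used a joint F test. P-values were adjusted after Benjamini and Hochberg over all genes tested, at FDR under 1%. Tests on counts, which the authors ran in edgeR, were not repeated on these values. Recovered reads entered voom weights only. The script was tested on simulated data. Deviations of same-numbered libraries of a strain from their group means correlated at 0.0379 to 0.392 in YPD and ethanol, and whether a number marks the same day across media is not given.

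Genes are named by rule: the 15 largest increases and 15 largest decreases past the threshold with all 6 pairs in 1 direction and a mean RPKM of at least 10 where higher, then up to 4 members per list with the largest change, or, with none called, the 2 of highest level. Members and lists were chosen with earlier results of these data known. The replicates are cultures taken on different days, so p-values measure the spread between these. The precision of low values is set by depth, and counting error is only part of it. Members of the HXT, FLO, AAD, TDH, ENO and ribosomal families and overlapping genes may share reads. Alternatives were other scalings, filters, blocks, pseudocounts and sets of libraries, and leaving out each library.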

Additional observations from a re-analysis of the deposited data

Results flagged for a closer look

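FIT3 and MET17 were singled out because both pairs of libraries of 1 strain moved against those of another. FIT3 changed by 1.28 log2 units in WA, -0.328 in PAP and 2.08 in IL01, and MET17, which makes homocysteine from sulfide, by 0.283, -0.139 and 2.69. The test of the difference between strains gave adjusted p = 0.082 for FIT3 and 0.012 for MET17 in limma, neither past the threshold. Both genes were nonetheless called higher over the 3 strains (by 1.01 and 0.94).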

How the results depend on the processing

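Of 393 calls (316 higher and 77 lower), other settings gave 246 (196 and 50) with 1 ethanol effect for all strains, 839 (691 and 148) in the fit of all 24 aerobic libraries, 1271 (1144 and 127) in PAP and IL01 only, a setting chosen after seeing the data, and 756 (649 and 107) with a replicate block per strain and replicate. With no replicate block there were 445. Equal medians gave 177 higher and 121 lower, quantile normalization 160 lower and limma without the trend 46 lower. Leaving out 1 library gave 157 to 1261 calls (122 to 1133 higher, 35 to 128 lower), the fewest without IL01 ethanol replicate 2 and the most without WA YPD replicate 1. Differences between strains, 0 in the reported fit, numbered 2 in PAP and IL01 only, 32 in all 24 aerobic libraries, 2 at a mean RPKM of at least 5, 3 with no replicate block, 10 with a replicate block per strain and replicate, 3 with voom weights and 0 to 395 with 1 library left out, the most without WA YPD replicate 2 (22 without replicate 1). Of the 123 named genes past the threshold, none turned its direction, 75 stayed past it with every 1 of the 12 libraries left out and 63 in every one of the 13 other settings, 59 in all. Equal medians ended 47 of these calls and pseudocount 1 none. Ethanol against butanols gave 585 to 850 calls with a library left out, against 774. Same-numbered libraries of different groups correlated at -0.402 to 0.405 (median 0.0379) over 15 pairs of groups, most of them across strains. In the 3 pairs of YPD and ethanol of the same strain the range was 0.0379 to 0.392 (median 0.234). Whether the numbers mark a pairing was not tested. The cause of the differences between settings was not tested either. At this depth, values under about 0.387 RPKM in a gene of 1 kb are under 3 reads.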
